A study of Mus musculus with 23 samples.

Results

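The 10 genes described here encode receptors, channels, a transporter and signalling proteins of the megakaryocyte lineage: F2r, F2rl2, P2ry1, P2ry12, Kcnj5, Slc14a1, Pde10a, Rgs10, Rgs18 and Grap2. They were picked by gene symbol from the 24454 genes of the count table, as genes named for their level in megakaryocyte progenitors (MkP) of these libraries. Their contrast of MkP with long-term stem cells (LT-HSC) is therefore given as a description, with no test, and all 10 passed the filter on low counts in both library protocols.

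Platelets and their precursors read thrombin, ADP, collagen and other agonists through surface receptors. Of the protease-activated receptors, F2r and F2rl2 are cut by thrombin, and of the P2Y receptors, P2ry1 and P2ry12 bind ADP. Both families act through heterotrimeric G proteins that RGS proteins switch off by speeding GTP hydrolysis. Cyclic nucleotides restrain activation and are removed by phosphodiesterases, while collagen receptors signal through ITAM motifs, tyrosine kinases and adaptors.

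RNA was sequenced from bone marrow cells of C57BL/6 mice of 2 genotypes. V617F mice carried the SclCre;V617F combination (SF1 in the labels), in which a Cre driven from the Scl gene, active in blood stem and progenitor cells, switches on JAK2 V617F, the activating change found in myeloproliferative neoplasms. Wild-type (WT) mice were the reference, both genotypes had tamoxifen for 5 days, and marrow was taken 12 weeks later. All 4 populations were lineage-negative and Kit-positive: MkP were Sca-1-negative, CD150-positive and CD41-positive, LT-HSC were Sca-1-positive, CD48-negative and CD150-positive, and the CD41-positive and CD41-negative HSC are the fractions of that LT-HSC gate. Libraries of MkP (3 V617F, 3 WT) and LT-HSC (3 V617F, 3 WT) were made with SMART-Seq v2. Those of CD41-positive HSC (3 V617F, 2 WT) and CD41-negative HSC (3 V617F, 3 WT) were made with SMART-Seq v4. Protocol and population coincide, so levels were compared within a protocol. All 3 V617F LT-HSC libraries came from male mice and all WT LT-HSC libraries from females, so sex and genotype cannot be told apart there. All 3 V617F MkP libraries came from females, so sex also coincides with population wherever V617F MkP are set against V617F LT-HSC. In the CD41 fractions the V617F libraries numbered 2 came from a male, and all remaining libraries from females.

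Totals were between 17.6 and 49.2 M counts per library, and levels are given in CPM, counts per M of the scaled library total. WT LT-HSC library 30 stood apart, with 8.55% of its counts in 10 genes, against 4.22% and 4.07% in the others of its group. WT CD41-negative library 1 held 7.80% in 10 genes, against 4.44% and 2.95% in the others of its group. The mean Spearman correlation of a library with its group was 0.909 to 0.926 in WT LT-HSC and 0.910 to 0.922 in WT MkP. It was higher in V617F, at 0.967 to 0.972 in LT-HSC and 0.969 to 0.972 in MkP. WT LT-HSC and WT MkP libraries also held fewer genes, with 15547 ± 217 detected in V617F LT-HSC against 13365 ± 466 in WT LT-HSC, and 14953 ± 281 in V617F MkP against 11995 ± 491 in WT MkP (SD, n = 3 each). Megakaryocyte markers (18 genes) summed to 7909 to 9923 CPM in V617F MkP and 8386 to 9420 CPM in WT MkP, where Tubb1 was at 0. In the stem cells they summed to 2987 to 3179 CPM (V617F LT-HSC) and 4637 to 6382 CPM (WT LT-HSC). The 12 granulocyte markers summed to 1138 to 2584 CPM in V617F MkP and 8384 to 12325 CPM in WT MkP, while V617F LT-HSC held 560.1 to 1242 CPM of them and WT LT-HSC 3909 to 6897 CPM. In the CD41 fractions they stayed between 95.0 and 734 CPM. Erythroid markers (12 genes) summed to 333 to 499.7 CPM in V617F MkP and 1010 to 1065 CPM in WT MkP. In LT-HSC they summed to 124 to 210 CPM in V617F and 226 to 542 CPM in WT. Such sums cannot show whether other cells were present. The part of cell make-up, and of the genes detected, in the levels below was not tested. Jak2 RNA did not pass the test between genotypes in any population, with 115 ± 13.1 CPM in V617F MkP against 41.9 ± 5.47 CPM in WT MkP (SD, n = 3 each).

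Start regions of 4 of the genes are shown: the thrombin receptor genes F2rl2 and F2r on chromosome 13, whose patterns across the populations differ, and Kcnj5 and Pde10a, which are nearly silent outside CD41-positive populations. Each is the RefSeq sequence (GRCm38.p6) of 300 bases, from 250 before to 50 after an annotated start, on the gene's strand; capitals mark a match to a searched motif. The Pde10a window belongs to a start inside the gene's annotated span, and a second Pde10a window, further along, is not shown. Such windows were on hand for 8 of the 10 genes, 9 windows in all.
F2rl2 (chr13:95696670-95696969, plus strand): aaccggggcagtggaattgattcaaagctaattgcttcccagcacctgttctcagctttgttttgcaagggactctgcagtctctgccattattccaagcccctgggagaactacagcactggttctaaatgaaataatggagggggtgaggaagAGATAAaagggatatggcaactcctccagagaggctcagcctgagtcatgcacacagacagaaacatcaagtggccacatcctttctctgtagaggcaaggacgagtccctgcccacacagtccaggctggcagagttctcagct
F2r (chr13:95618417-95618716, minus strand): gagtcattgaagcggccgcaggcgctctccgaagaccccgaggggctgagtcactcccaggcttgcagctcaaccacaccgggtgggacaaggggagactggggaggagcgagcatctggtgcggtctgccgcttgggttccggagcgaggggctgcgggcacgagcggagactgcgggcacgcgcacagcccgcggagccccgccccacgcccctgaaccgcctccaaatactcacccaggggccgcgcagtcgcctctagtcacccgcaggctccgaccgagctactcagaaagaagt
Kcnj5 (chr9:32344295-32344594, minus strand): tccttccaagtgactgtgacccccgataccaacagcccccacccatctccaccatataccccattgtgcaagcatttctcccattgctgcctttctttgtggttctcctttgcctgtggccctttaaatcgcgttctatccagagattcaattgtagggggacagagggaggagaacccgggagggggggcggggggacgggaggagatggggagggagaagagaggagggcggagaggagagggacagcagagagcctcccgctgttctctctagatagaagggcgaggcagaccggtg
Pde10a (chr17:8801495-8801794, plus strand): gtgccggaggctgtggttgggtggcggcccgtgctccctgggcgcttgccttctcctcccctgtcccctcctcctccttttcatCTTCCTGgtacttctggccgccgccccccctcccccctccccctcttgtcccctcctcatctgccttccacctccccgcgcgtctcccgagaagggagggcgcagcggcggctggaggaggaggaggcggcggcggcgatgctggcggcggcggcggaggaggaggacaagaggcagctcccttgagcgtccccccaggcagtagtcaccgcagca
AGATAA, a site of GATA factors, was found on either strand in 1 of the 9 windows, at 95 bases before the F2rl2 start, against 11.2% of the 32851 mouse windows. CAGGAAG, a site of ETS factors, was in 1 of 9, on the opposite strand of Pde10a as CTTCCTG, against 13.3% of all windows. TTCNNNGAA, the STAT site, was in 0 of 9, against 8.3% of all. A match describes the letters of the window and says nothing of binding.

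Of the receptors, F2r (chr13:95601780-95618466), which encodes the classical thrombin receptor, had 761, 813 and 385 CPM in V617F MkP, against 139, 36.8 and 221 CPM in V617F LT-HSC. In WT it had 590.4, 530.2 and 588 CPM in MkP, against 6.83, 67.3 and 73.0 CPM in LT-HSC. The groups did not overlap in either genotype. The fold was 4.94 in V617F (3.63 without LT-HSC library 7, 7.62 without LT-HSC library 8). In WT it was 11.6 (8.15 without LT-HSC library 30, 15.4 without LT-HSC library 32). The lowest V617F MkP value was that of library 3, where Itga2b, the gene of CD41, was also lowest, at 633 CPM against 1303 and 1313 CPM in the other libraries of the group. The lowest LT-HSC value was that of WT library 30, the library that stood apart, where Itga2b was at 31.1 CPM.

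F2rl2 (chr13:95696920-95702768) encodes the thrombin-binding receptor that helps thrombin reach its signalling partner receptor on mouse platelets. It had 517, 402 and 576 CPM in V617F MkP, against 12.1, 16.6 and 9.33 CPM in V617F LT-HSC. In WT it had 359.8, 361.5 and 663 CPM in MkP, against 15.5, 11.9 and 11.3 CPM in LT-HSC. With folds of 39.3 in V617F and 35.7 in WT it separated the populations far more widely than F2r did, because its LT-HSC level was low in every library, including WT library 30.

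P2ry1 (chr3:61002785-61008982), the ADP receptor that triggers platelet shape change through calcium, had 114, 123 and 99.6 CPM in V617F MkP, against 5.51, 6.65 and 7.92 CPM in V617F LT-HSC. WT libraries had 58.0, 131 and 77.1 CPM in MkP, against 0.732, 8.10 and 17.6 CPM in LT-HSC. These groups did not overlap, but WT LT-HSC spread widely and reached its lowest value in library 30. P2ry1 shares 992 exonic bases with Gm37035 on the opposite strand, and whether the counting used strand is not given in the sources used here.

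P2ry12 (chr3:59216271-59262985), the ADP receptor blocked by clopidogrel, did not bear out its place among genes high in MkP. Its counts were 7, 21 and 0 in V617F MkP and 0, 0 and 0 in WT MkP, while V617F LT-HSC had 6, 6 and 3 and WT LT-HSC had 6, 4 and 0. The highest level in any of the 23 libraries was 0.776 CPM, in V617F MkP library 2. Groups overlapped in every comparison, and no fold is given.

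Kcnj5 (chr9:32314706-32344380), a subunit of the G protein-gated inward rectifier potassium channels, came closest to an on-off pattern. It had 116, 104 and 66.8 CPM in V617F MkP, against 2 counts in all over the 3 V617F LT-HSC libraries. WT MkP had 200, 89.0 and 179 CPM, against 2 counts in all over the 3 WT LT-HSC libraries. The LT-HSC counts are too few for a fold.

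Slc14a1 (chromosome 18), the urea transporter UT-B, was the gene with the highest mean of the 10 in WT MkP. It had 1069, 1115 and 821 CPM in V617F MkP, against 105, 82.8 and 73.7 CPM in V617F LT-HSC. In WT the levels were 1182, 1534 and 1303 CPM in MkP, against 103, 59.0 and 99.0 CPM in LT-HSC. The folds were 11.5 in V617F and 15.4 in WT, and neither genotype showed overlap.

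Among the signalling proteins, Pde10a (chr17:8525187-8986648), a phosphodiesterase of cAMP and cGMP, had 134, 100.3 and 109 CPM in V617F MkP, against 3.98, 4.73 and 1.5 CPM in V617F LT-HSC. WT libraries held 149.5, 93.3 and 244 CPM in MkP, against 0, 0.0566 and 1.47 CPM in LT-HSC. The fold was 33.7 in V617F and 297 in WT, where the LT-HSC counts were 0, 2 and 74, so that the WT fold rests on library 32.

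Rgs10 (chr7:128373621-128419506), a small RGS protein of Gi and Gq signalling, had 75.4, 50.6 and 76.8 CPM in V617F MkP, against 3.73, 4.42 and 1.67 CPM in V617F LT-HSC. WT libraries had 34.3, 42.2 and 57.9 CPM in MkP, against 11.4, 8.27 and 0.478 CPM in LT-HSC. Both genotypes kept the populations apart, by 20.7-fold in V617F and 6.69-fold in WT, where the fold was 10.4 without LT-HSC library 30 and 4.31 without library 32. Rgs18 (chr1:144752683-144775427), the RGS protein best known from platelets, had 957.5, 676 and 1443 CPM in V617F MkP, against 264, 272 and 310.2 CPM in V617F LT-HSC. In WT its 483, 629 and 947.5 CPM in MkP overlapped with 495, 179 and 571 CPM in LT-HSC. Rgs18 was thus high in stem cells too, and its fold was 3.63 in V617F and 1.65 in WT.

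Grap2 (chr15:80572597-80652854), the adaptor Gads that ties the scaffold protein Lcp2 to activated receptors, was the lowest of the genes other than P2ry12. It had 12.55, 13.3 and 17.7 CPM in V617F MkP, against 0.704, 2.81 and 0.458 CPM in V617F LT-HSC. The V617F fold was 11, which became 24.8 without LT-HSC library 7 and 8.49 without LT-HSC library 8. WT libraries held 6.71, 35 and 32.9 CPM in MkP and no count in any LT-HSC library. This puts the WT MkP mean, not each library, at least 280-fold above a floor of 3 counts per library. WT LT-HSC libraries also held fewer genes, as given above.

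Of the 10 genes, 9 had every V617F MkP library above every V617F LT-HSC library, P2ry12 being the exception, and in WT 8 of 10 did, P2ry12 and Rgs18 being the exceptions. Over all 14281 genes fitted, 17% had every V617F MkP library above every V617F LT-HSC library, and 8.39% did so in WT. EdgeR called 1.09% between MkP and LT-HSC in V617F at an adjusted p under 0.05, 0.378% higher and 0.714% lower in MkP. In WT it called 8.9%, 2.32% higher and 6.58% lower. The median log2 difference of the 10 genes was 3.79 in V617F and 3.74 in WT, against medians over all fitted genes of -0.06 in V617F and -0.20 in WT. Because the genes were chosen on this contrast, these figures describe the choice. In sorted bulk samples, fewer cells of a type and less RNA per cell cannot be told apart.

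**Figure D1:**
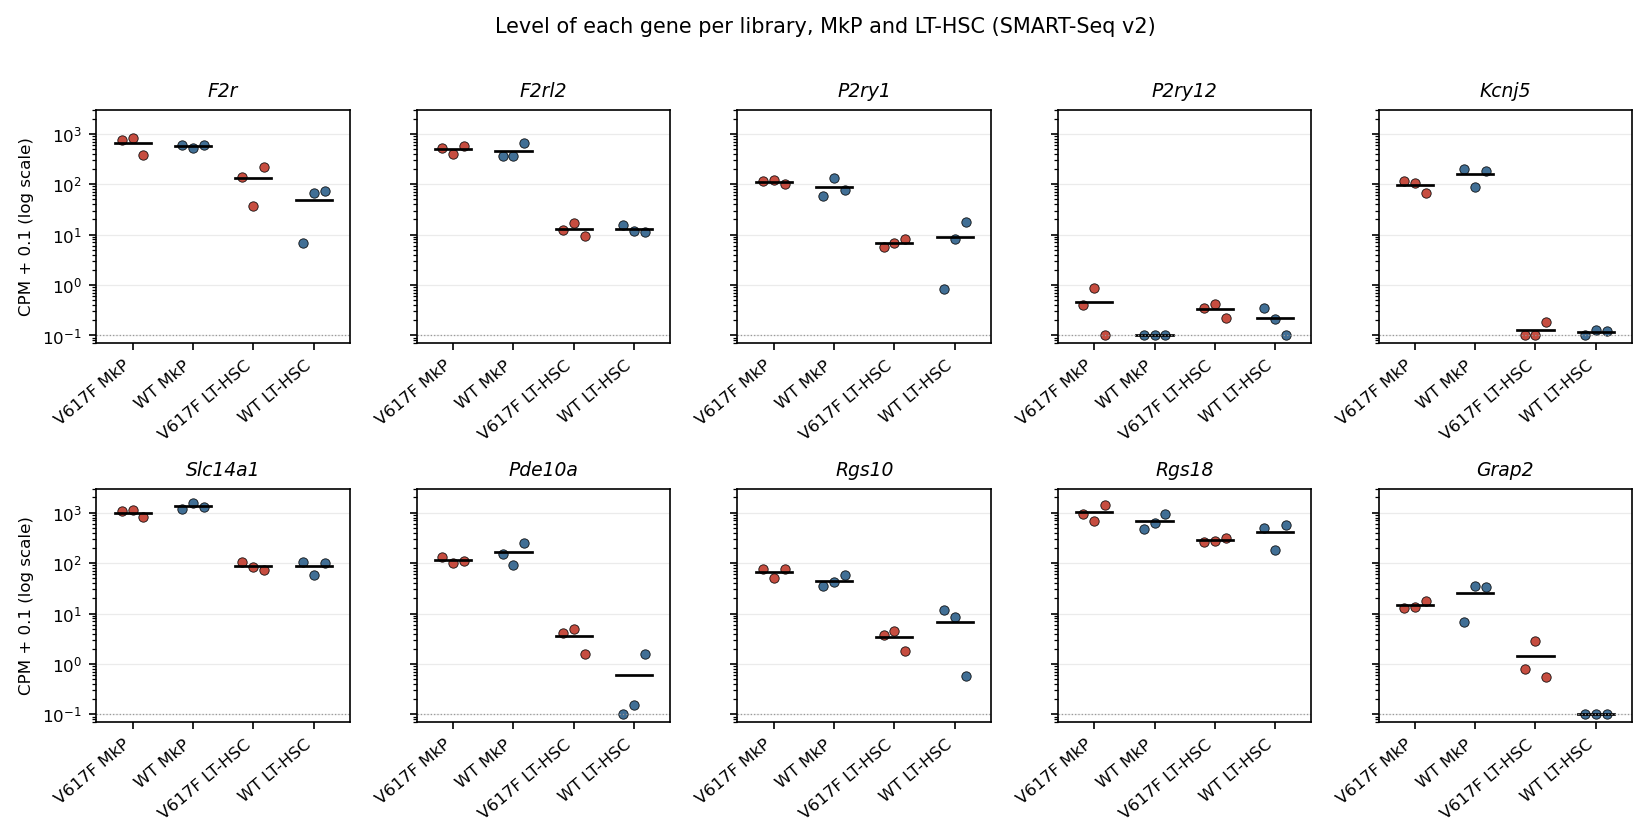
Level of each gene in each SMART-Seq v2 library, as CPM + 0.1 on a log axis, for MkP and LT-HSC of V617F (red) and WT (blue). Points are libraries (3 per group) and bars are group means; in 8 genes every MkP library lies above every LT-HSC library of its genotype, Rgs18 overlaps in WT, and P2ry12 lies near the dotted line of zero counts throughout.

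The CD41 fractions of the stem cell gate were read next, in libraries outside the contrast of MkP with LT-HSC. The genes were chosen with results of these fractions known, and MkP were themselves sorted as CD41-positive. The calls below are therefore no independent check of the choice. In V617F, 8 of the 10 genes were higher in CD41-positive than in CD41-negative HSC (edgeR quasi-likelihood test, adjusted p under 0.05), while 16.4% of all 14467 genes were; a further 17.9% were lower, 34.3% in all. In WT, 8 of 10 were higher, against 15.7% of all genes higher and 18.2% lower, 34% in all. They were the same 8 genes: F2r, F2rl2, P2ry1, Kcnj5, Slc14a1, Pde10a, Rgs10 and Grap2. Kcnj5 and Grap2 reached 10 counts in CD41-positive libraries alone and so passed the filter on low counts through the fraction where they are high. P2ry12, which was not called, also met the filter's minimum, scaled to library size, in CD41-positive libraries alone. Of the 8 genes other than Kcnj5 and Grap2, P2ry12 among them, 6 were called in V617F and 6 in WT. The median log2 difference of the 10 genes was 2.17 in V617F and 2.05 in WT, against -0.02 and -0.04 over all genes in V617F and in WT. None of the 10 was lower in either genotype.

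The step was steepest for genes nearly absent from CD41-negative HSC. Pde10a had 40.03, 16.9 and 41.9 CPM in V617F CD41-positive HSC, against 0.713, 0.674 and 0.741 CPM in V617F CD41-negative HSC. In WT it had 41.2 and 41.2 CPM in CD41-positive HSC, against 0.905, 1.64 and 2.32 CPM in CD41-negative HSC. The log2 difference was 5.52 ± 0.398 (SE) in V617F, with an edgeR adjusted p of 4.43e-06, and 4.66 ± 0.388 in WT, with an adjusted p of 2.92e-05. Kcnj5 had 8.03, 1.99 and 7.83 CPM in V617F CD41-positive HSC, against counts of 2, 3 and 0 in V617F CD41-negative HSC. In WT its levels were 12.2 and 17.1 CPM in CD41-positive HSC, against counts of 3, 0 and 6 in CD41-negative HSC. With no filter on low counts, edgeR gave Kcnj5 an adjusted p of 2.25e-06 in V617F and 2.04e-06 in WT, and no fold is given against so few counts.

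The receptors F2rl2 and P2ry1 differed by an order of magnitude or close to it. F2rl2 had 102, 40.7 and 70.3 CPM in V617F CD41-positive HSC, against 7.47, 5.85 and 7.24 CPM in V617F CD41-negative HSC. In WT it had 69.3 and 64.0 CPM in CD41-positive HSC, against 3.62, 2.52 and 7.30 CPM in CD41-negative HSC. The folds were 10.3 in V617F (edgeR adjusted p 3.70e-05) and 14.8 in WT (adjusted p 5.36e-05). P2ry1 had 85.6, 57.1 and 73.0 CPM in V617F CD41-positive HSC, against 4.48, 9.35 and 8.93 CPM in V617F CD41-negative HSC. WT levels were 76.6 and 75.7 CPM in CD41-positive HSC, against 8.62, 12.1 and 12.3 CPM in CD41-negative HSC. The folds were 9.5 in V617F (edgeR adjusted p 7.00e-06) and 6.91 in WT (adjusted p 4.41e-05), and no libraries overlapped.

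Slc14a1 and F2r showed smaller steps on a higher base. Slc14a1 averaged 349 ± 110 CPM in V617F CD41-positive HSC and 99.6 ± 16.4 CPM in V617F CD41-negative HSC (SD, n = 3 each), a fold of 3.51 (edgeR adjusted p 1.36e-04). In WT it averaged 459 ± 51.1 CPM in CD41-positive HSC (SD, n = 2) and 128 ± 28.4 CPM in CD41-negative HSC (SD, n = 3), a fold of 3.59 (edgeR adjusted p 4.03e-04). F2r was 2.06-fold higher in V617F CD41-positive HSC (edgeR adjusted p 2.87e-04) and 3.02-fold higher in WT CD41-positive HSC (adjusted p 6.45e-05), and its levels per library are given with the genotypes below.

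Of the signalling proteins, Rgs10 averaged 9.50 ± 1.55 CPM in V617F CD41-positive HSC and 1.64 ± 0.185 CPM in V617F CD41-negative HSC (SD, n = 3 each), a fold of 5.79 (edgeR adjusted p 4.81e-05). In WT it averaged 8.65 ± 0.836 CPM in CD41-positive HSC and 1.95 ± 0.768 CPM in CD41-negative HSC, a fold of 4.43 (edgeR adjusted p 4.74e-04). Rgs18 did not pass edgeR's test in either genotype as fitted, though some alternatives called it. It had 462, 304 and 446 CPM in V617F CD41-positive HSC, against 319, 288 and 255 CPM in V617F CD41-negative HSC, a log2 difference of 0.49 ± 0.251 (SE; edgeR adjusted p 0.147). In WT its 468 and 431 CPM in CD41-positive HSC lay above 313, 158 and 357 CPM in CD41-negative HSC, a log2 difference of 0.70 ± 0.276 (edgeR adjusted p 0.0653). In WT it was called by DESeq2 (adjusted p 0.0337), with no filter on low counts (0.0301) and without CD41-negative library 4 (0.0164), and in V617F in an edgeR fit of only these groups (0.0228).

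Grap2 was called at low levels, with at most 9 counts in any CD41-negative library. It had 1.48, 0.548 and 0.938 CPM in V617F CD41-positive HSC, against 0.272, 0.405 and 0.282 CPM in V617F CD41-negative HSC (edgeR adjusted p 0.0251). The V617F call was lost without CD41-negative library 1 (adjusted p 0.0695) or 3 (0.0816) and without CD41-positive library 1 (0.126) or 3 (0.0593). WT levels were 1.71 and 1.03 CPM in CD41-positive HSC, against 0.479, 0.219 and 0.353 CPM in CD41-negative HSC (edgeR adjusted p 0.0171). The WT call was lost without WT CD41-negative library 3 (adjusted p 0.0516) and without WT CD41-positive library 3 (0.149) or 4 (0.0559), and in a fit of only the WT groups (0.0504). With no filter on low counts its adjusted p was 0.0358 in V617F and 0.0188 in WT. P2ry12 counts were 9, 6 and 3 in V617F CD41-positive HSC and 2 and 13 in WT CD41-positive HSC, against 11, 0 and 9 in V617F CD41-negative HSC and 3, 0 and 2 in WT CD41-negative HSC.

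Within V617F CD41-positive HSC, library 2, from the male mouse, was the lowest in 9 of the 10 genes, P2ry12 being the exception, and library 1 the highest in 9. Its megakaryocyte marker sum was 4419 CPM, against 5460 and 5513 CPM in libraries 1 and 3, and its Itga2b level 611 CPM, against 743 and 737 CPM. The part of sex or of cell make-up in this was not tested. The fractions were sorted on CD41, and 14 of 18 megakaryocyte markers were also called higher in CD41-positive HSC in each genotype. Stem cell markers were called lower in 6 of 11 and higher in 2 of 11 in each genotype. Granulocyte markers were called lower in 2 of 11 in V617F and 6 of 11 in WT. Of 7 endothelial and stromal markers, 2 were called higher and 2 lower in V617F, and 4 higher and 1 lower in WT. Of 12 erythroid markers, 4 were called higher and 2 lower in V617F, and 2 higher and 3 lower in WT. The megakaryocyte marker sums were 4419 to 5513 CPM in V617F CD41-positive HSC and 6129 to 6385 CPM in WT CD41-positive HSC, against 2785 to 3123 CPM in V617F CD41-negative HSC and 3696 to 4422 CPM in WT CD41-negative HSC.

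**Figure D2:**
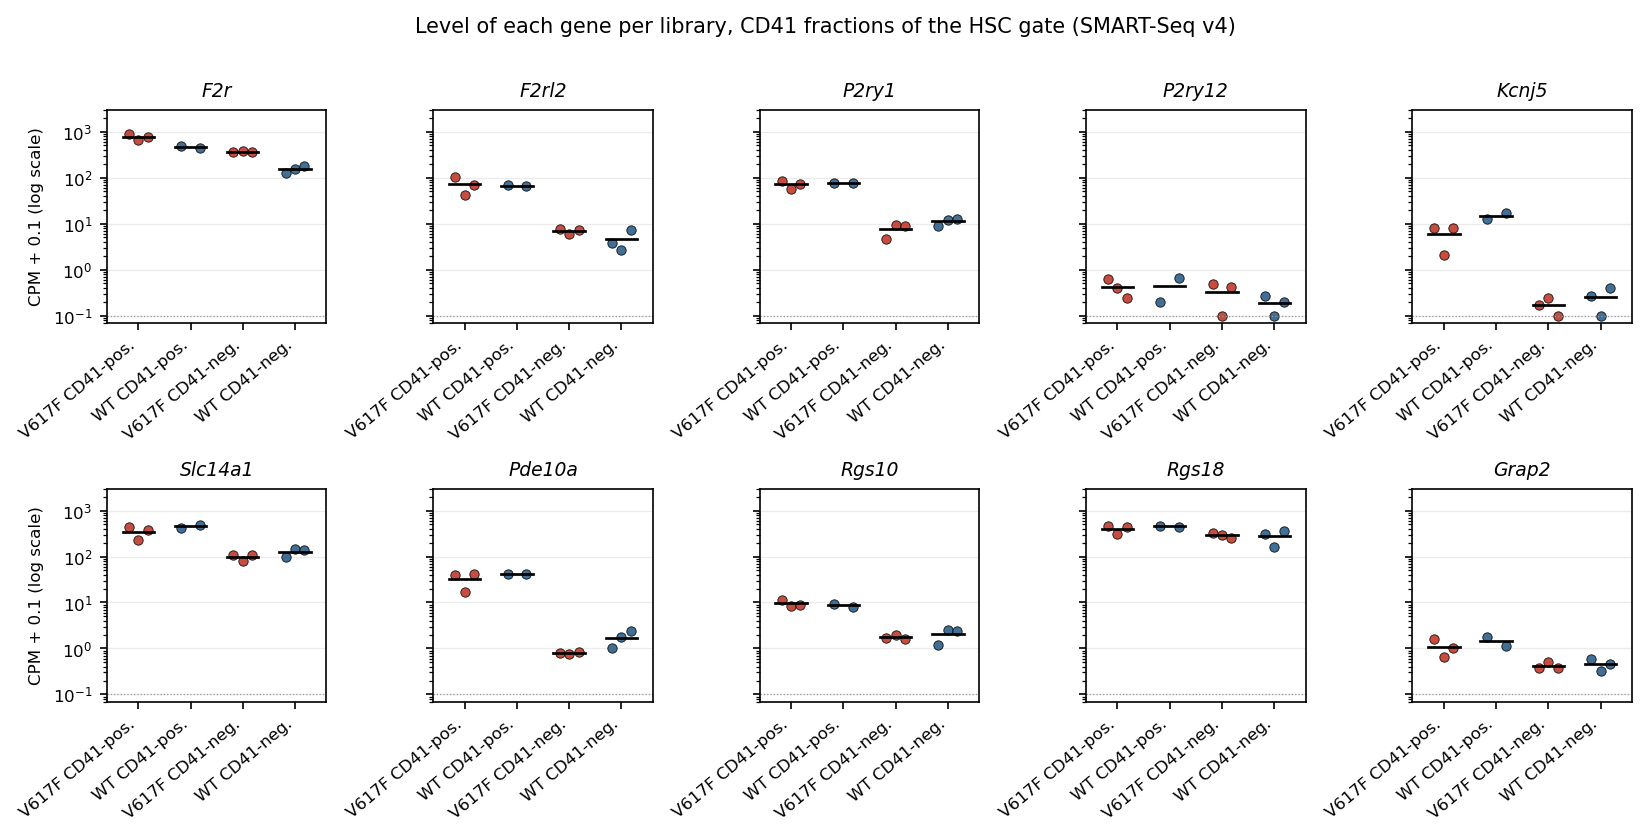
Level of each gene in each SMART-Seq v4 library, as CPM + 0.1 on a log axis, for the CD41-positive and CD41-negative fractions of V617F (red) and WT (blue). Points are libraries (2 or 3 per group) and bars are group means; the CD41-positive groups sit above the CD41-negative groups of the same genotype in 8 genes called in both genotypes, Rgs18 shows a small step and P2ry12 rests on 0 to 13 counts.

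The question put by the genotypes is what V617F changes within one population. F2r was the gene of the 10 that passed the test, in CD41-negative HSC. It had 355, 380.5 and 369.5 CPM in V617F CD41-negative HSC, against 127, 152 and 180 CPM in WT CD41-negative HSC. Every V617F library exceeded every WT library by a wide margin, with a log2 difference of 1.27 ± 0.154 (SE), or 2.41-fold, and an edgeR adjusted p of 0.0011. The call held in all 16 alternatives, at log2 1.03 to 1.40 and an adjusted p of at most 0.0115; without WT CD41-negative library 1 it was 1.14. With 1 of 10 genes called, the share is to be read against 13.4% of all genes called in this contrast, 5.48% higher and 7.94% lower. The median log2 difference of the 10 genes was -0.20, against -0.01 over all genes.

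The rise of F2r ran against the megakaryocyte markers, of which 6 of 18 were called lower and 0 higher in V617F CD41-negative HSC. Itga2b averaged 115 ± 20.04 CPM in V617F and 187 ± 42.6 CPM in WT CD41-negative HSC (SD, n = 3 each; log2 -0.70, edgeR adjusted p 0.0314). Erythroid markers were also called lower, in 9 of 12, with sums of 99.8 to 191 CPM in V617F and 204 to 347 CPM in WT CD41-negative HSC. Monocyte and macrophage markers were called lower in 4 of 6, with sums of 2.78 to 3.06 CPM in V617F and 6.51 to 14.2 CPM in WT CD41-negative HSC. The part of these markers in the F2r difference was not tested. Pde10a levels in CD41-negative HSC, given above, were lower in every V617F library, with a log2 difference of -1.19 ± 0.426 (SE; edgeR adjusted p 0.0721), which did not pass, though DESeq2 gave an adjusted p of 0.0201. P2ry1 averaged 7.59 ± 2.70 CPM in V617F and 11.02 ± 2.08 CPM in WT CD41-negative HSC (SD, n = 3 each) with overlapping libraries (edgeR adjusted p 0.139).

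In CD41-positive HSC none of the 10 genes passed edgeR's test, while 1.16% of all genes did, 0.221% higher and 0.94% lower. An unadjusted p under 0.05 was reached by 2 of the 10, against 1538 of all 14467 genes. DESeq2 called 1 of the 10, and its calls over all genes were not counted. The gene called by DESeq2 was F2r, with 867, 653 and 757 CPM in V617F CD41-positive HSC, against 491 and 431 CPM in WT CD41-positive HSC. The groups did not overlap, the log2 difference was 0.72 ± 0.172 (SE) and the edgeR adjusted p was 0.0767. DESeq2 gave it an adjusted p of 0.0024, and an edgeR fit of only these groups 0.0189. The other gene with an unadjusted p under 0.05 was Kcnj5, where the 3 V617F levels lay below both WT levels, the lowest in library 2. Its log2 difference was -1.30 ± 0.527 (edgeR adjusted p 0.384). The share of all genes without overlap between genotypes was not counted in the CD41 fractions either.

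Whether the genotype difference itself differed between the fractions was tested with an interaction term. For F2r the difference was 0.55 log2 units smaller in CD41-positive HSC, with an SE of 0.226 and an edgeR adjusted p of 0.566 (unadjusted 0.0304). The term passed for 0% of all genes, although 1274 of 14467 had an unadjusted p under 0.05, 1 of them among the 10 genes. The F2r difference was thus not shown to differ between the fractions.

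In LT-HSC and MkP no gene of the 10 was called between genotypes by edgeR, against 0.063% of all genes in LT-HSC (0.028% higher, 0.035% lower) and 1.75% in MkP (1.62% higher, 0.126% lower). At an unadjusted p under 0.05 there were 2 of 10 in LT-HSC, against 1762 of all 14281 genes. In MkP there was 1 of 10, against 2187 of all 14281. DESeq2 called 1 of the 10 in LT-HSC and 0 in MkP, and its calls over all genes were not counted. In LT-HSC the F2r levels, given above, were higher in V617F on average, at 132 ± 92.4 CPM against 49.0 ± 36.7 CPM in WT (SD, n = 3 each), but overlapped (log2 1.43 ± 0.737 SE, edgeR adjusted p 0.473). Without WT library 30 the log2 difference of F2r was 0.94. Pde10a lay higher in every V617F LT-HSC library, though narrowly, the nearest values being 1.5 CPM in V617F library 8 and 1.47 CPM in WT library 32 (log2 2.64 ± 1.01 SE, edgeR adjusted p 0.300). Its log2 difference ran from 2.10 to 6.50 with a library left out, the highest without WT library 32. Grap2 had counts in every V617F LT-HSC library and in no WT LT-HSC library, which held fewer genes (edgeR adjusted p 0.0892; called by DESeq2). In MkP Slc14a1 averaged 1001 ± 158 CPM in V617F and 1340 ± 179 CPM in WT (SD, n = 3 each), without overlap. Its log2 difference was -0.42 ± 0.295 (edgeR adjusted p 0.605). The share of all genes without overlap between genotypes was not counted in LT-HSC or MkP, so the separations given here are descriptions.

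**Figure D3:**
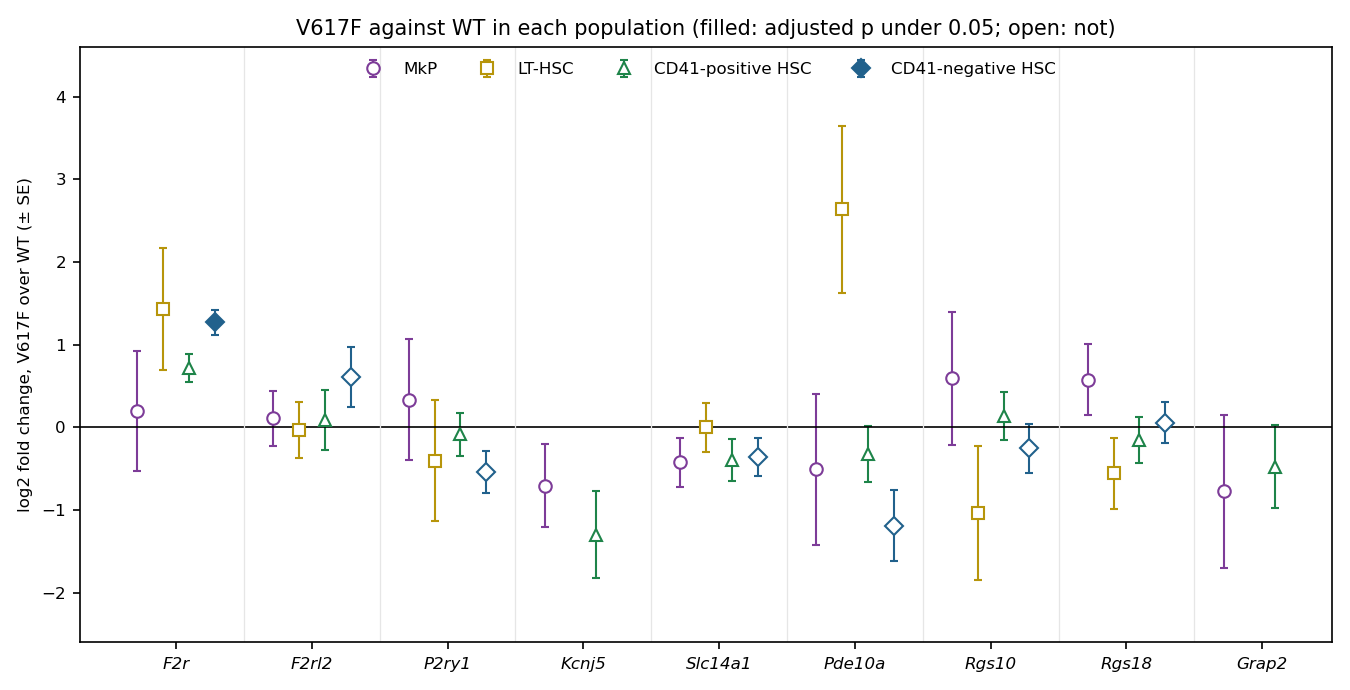
Log2 difference of V617F over WT, with its SE as bars, for each gene in MkP, LT-HSC, CD41-positive HSC and CD41-negative HSC, from edgeR; filled symbols mark an adjusted p under 0.05. P2ry12, and Kcnj5 and Grap2 where counts were near 0, are left out; the filled symbol is F2r in CD41-negative HSC, at 1.27.

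Levels between genes were compared per kb of gene length, using the lengths in the table. In V617F MkP the order of mean CPM per kb was Rgs18 (552), Slc14a1 (251), F2rl2 (202), F2r (198), Rgs10 (77.3), P2ry1 (28.8), Kcnj5 (21.3), Pde10a (14.03), Grap2 (2.59) and P2ry12 (0.154). In WT MkP Rgs18 (369) and Slc14a1 (335) again led, and F2rl2 and F2r followed at 187 and 173. F2r and F2rl2 did not differ beyond their spread in either genotype: F2r had 198 ± 70.9 and F2rl2 202 ± 36.0 CPM per kb in V617F MkP (SD, n = 3 each).

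Set beside the rest of their families, some members differed in their share of the receptors between populations. Of the summed CPM per kb of the protease-activated receptors, F2rl2 made up 46.3% in V617F MkP and 45.9% in WT MkP, while its share of V617F LT-HSC was 5.49% and of WT LT-HSC 4.08%. F2rl3, the main signalling thrombin receptor of mouse platelets, showed the opposite shares, with 8.41% in V617F MkP and 11.7% in WT MkP, while V617F LT-HSC stood at 51.7% and WT LT-HSC at 84.4%. Its own level was less variable, at 36.8 ± 13.2 CPM per kb in V617F MkP and 47.7 ± 24.9 in WT MkP, with 48.4 ± 7.06 for V617F LT-HSC and 109 ± 52.2 for WT LT-HSC (SD, n = 3 each). F2rl1 had at most 2 counts in any library. F2r made up 45.3% of the family in V617F MkP and 42.8% in V617F LT-HSC, against 42.4% in WT MkP and 11.6% in WT LT-HSC. In CD41-negative HSC, F2r made up 73.8% in V617F and 50.1% in WT, and in CD41-positive HSC 78.1% in V617F and 66.2% in WT.

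Among P2Y receptors, P2ry1 made up 77.8% of the summed CPM per kb in V617F MkP and 70.0% in WT MkP, while V617F LT-HSC stood at 5.27% and WT LT-HSC at 8.31%. In the CD41-positive fraction its share was 60.2% in V617F and 65.0% in WT, against 5.64% in V617F CD41-negative HSC and 9.42% in WT CD41-negative HSC. P2ry14, the receptor of UDP-glucose, had the highest level of the family in LT-HSC and in CD41-negative HSC, with 23.8 ± 3.18 CPM per kb in V617F LT-HSC and 16.9 ± 5.51 in WT LT-HSC (SD, n = 3 each). Of the RGS genes read, Rgs18 had the highest mean level per kb in MkP and CD41-positive HSC of both genotypes. In WT LT-HSC it had 223 ± 112 CPM per kb and Rgs19 121 ± 45.4, within their spread. Rgs18 and Rgs1 lay within their spread in V617F LT-HSC, at 152 ± 13.2 and 139 ± 26.5 CPM per kb, and in WT CD41-negative HSC, at 148 ± 56.3 and 128 ± 8.15. In V617F CD41-negative HSC Rgs1 stood at 157 ± 48.1 CPM per kb and Rgs18 at 154 ± 17.2, within their spread (SD, n = 3 each).

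**Figure D4:**
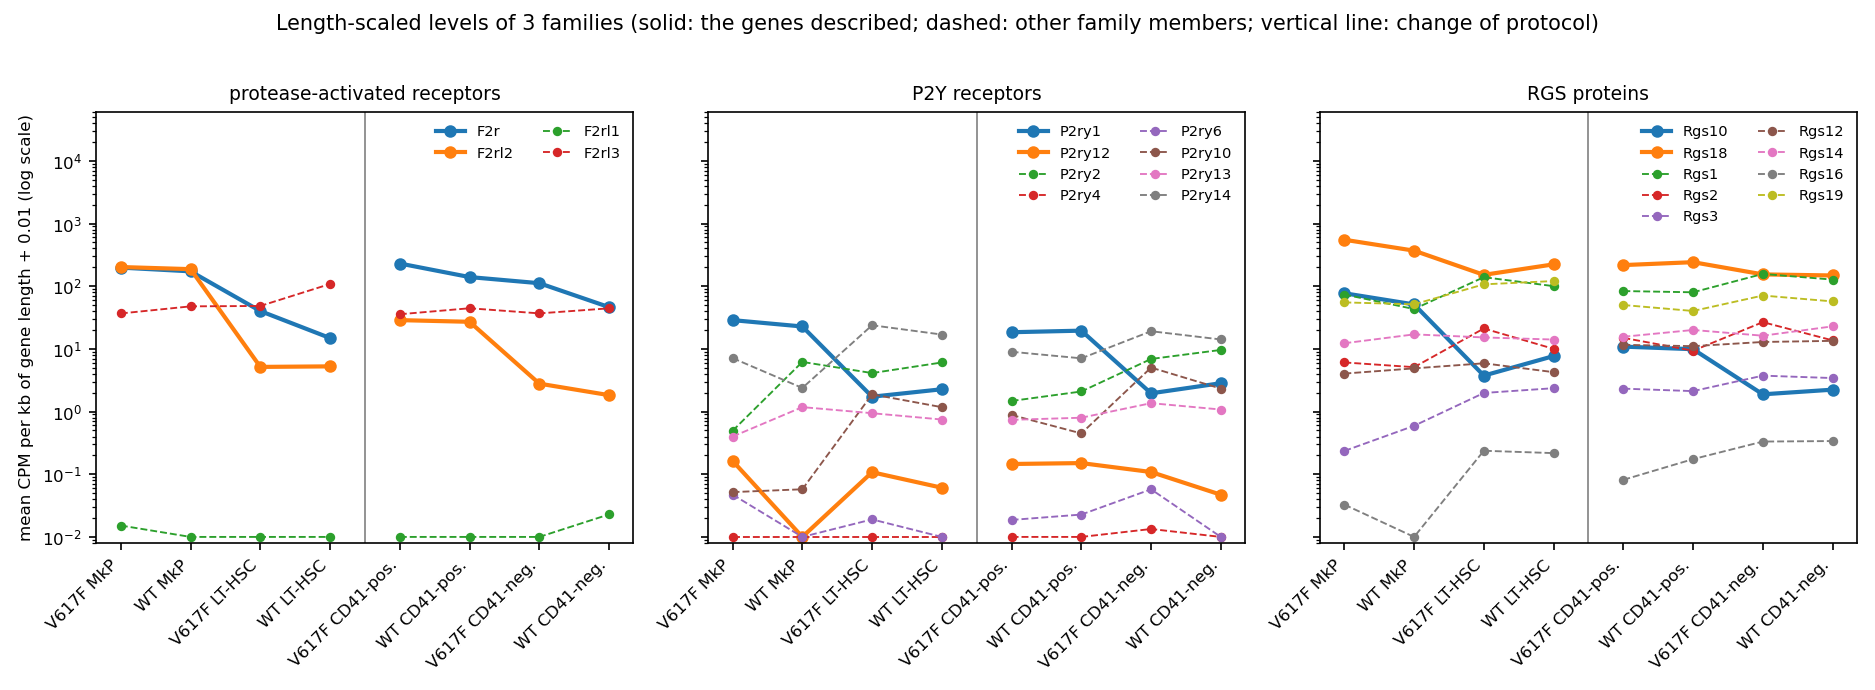
Mean CPM per kb of gene length (+ 0.01, log axis) of the protease-activated receptors, P2Y receptors and RGS proteins in the 8 groups; solid lines are the genes described, dashed lines other family members, and the vertical line marks the change of protocol. Lines only join the values of a gene. Within each genotype, F2rl2, P2ry1 and Rgs10 have higher means in MkP than in LT-HSC, and in CD41-positive than in CD41-negative HSC. P2ry2 and P2ry14 run mostly the other way.

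The other receptor and signalling genes of the pathway were read from a list of 106, of which 100 were fitted with SMART-Seq v4. In CD41-positive against CD41-negative HSC, 20 rose and 31 fell in V617F, against 16.4% of all genes higher and 17.9% lower. In WT 18 rose and 26 fell, against 15.7% of all genes higher and 18.2% lower. They thus went both ways, while the 10 genes had been chosen with results of these fractions known. Of the 13 other G protein-coupled receptors fitted, 2 were higher and 8 lower in V617F CD41-positive HSC, and 2 were higher and 7 lower in WT. P2ry2, a receptor of ATP and UTP, averaged 4.5 ± 0.366 CPM in V617F CD41-positive HSC and 21.2 ± 1.85 CPM in V617F CD41-negative HSC (SD, n = 3 each; log2 -2.23, edgeR adjusted p 1.90e-05). P2ry10, a receptor of lysophosphatidylserine, and Ptafr, the receptor of platelet-activating factor, also fell in V617F, by 2.53 and 1.81 on the log2 scale. Ptger3, a prostaglandin E receptor, rose, at 105 ± 4.06 CPM in V617F CD41-positive HSC and 60.2 ± 8.14 CPM in V617F CD41-negative HSC. The 7 other RGS genes all had a negative difference in both genotypes, and 5 passed in V617F and 3 in WT; Rgs10 thus differed in sign from them.

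Cyclic nucleotide enzymes went both ways, with 6 higher and 3 lower of 17 in V617F and 4 higher and 4 lower in WT. Gucy1b3, a subunit of the nitric oxide receptor, averaged 14.4 ± 1.73 CPM in WT CD41-positive HSC (SD, n = 2) and 3.26 ± 0.323 CPM in WT CD41-negative HSC (SD, n = 3), at log2 2.14 (edgeR adjusted p 6.83e-05), and rose by log2 2.30 in V617F. Pde5a, a cGMP phosphodiesterase, rose by log2 1.54 in V617F and 1.57 in WT, and Adcy6, an adenylyl cyclase, by 1.60 in V617F. In WT, Pde2a fell by 1.23 and Adcy3 fell by 1.5 on the log2 scale. Among G proteins and effectors, Rap1b, the GTPase that activates platelet integrins, averaged 1198 ± 347 CPM in V617F CD41-positive HSC and 387 ± 26.2 CPM in V617F CD41-negative HSC (edgeR adjusted p 2.42e-04), and rose by log2 1.93 in WT. Plcb1 rose by log2 1.67 in WT, while Plcb2, another phospholipase C beta, fell by 0.86 in V617F and 1.14 in WT. Of the channels, Orai1, the store-operated calcium channel, fell by 0.83 in V617F and 0.84 in WT on the log2 scale, P2rx7, an ATP-gated channel, fell by 2.84 in V617F, and Kcna3, a potassium channel, rose by 1.31 in WT. Slc14a2, the neighbouring urea transporter gene, averaged 4.48 ± 0.915 CPM in V617F CD41-positive HSC and 0.0453 ± 0.0784 CPM in V617F CD41-negative HSC. In WT it averaged 4.83 ± 0.961 CPM in CD41-positive HSC and 0.370 ± 0.249 CPM in CD41-negative HSC, and it passed in both genotypes. Its V617F CD41-negative mean lay below the floor of 3 counts per library. It may have passed the filter on low counts through CD41-positive HSC alone, which was not checked, so its calls are descriptions.

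Between genotypes, 9 of the 100 pathway genes were higher and 19 lower in V617F CD41-negative HSC, against 5.48% of all genes higher and 7.94% lower. Rgs2, an RGS protein of Gq signalling, averaged 80.4 ± 12.0 CPM in V617F and 41.1 ± 6.36 CPM in WT CD41-negative HSC (SD, n = 3 each; log2 0.97, edgeR adjusted p 0.0136). P2ry10 averaged 14.2 ± 2.28 CPM in V617F and 6.55 ± 2.13 CPM in WT (edgeR adjusted p 0.0201), and Btk, a kinase of ITAM signalling, 169 ± 9.88 CPM in V617F and 99.0 ± 27.0 CPM in WT (0.0185). Gna15, Fyn and Kcna3 were higher by log2 0.44, 0.48 and 0.71. Fcer1g, the ITAM chain of the collagen receptor, was lower in V617F in both fractions. It averaged 10.1 ± 1.10 CPM in V617F and 24.4 ± 2.26 CPM in WT CD41-negative HSC (edgeR adjusted p 0.0011), and 5.95 ± 0.455 CPM in V617F and 15.7 ± 0.0103 CPM in WT CD41-positive HSC (adjusted p 0.0016). Plcb2, Gng11, Stim1, Adcy9 and P2rx1 were lower by log2 differences of -0.72, -0.60, -0.63, -0.71 and -0.46. The count of 28 rested on several libraries: it was 2 in a fit of only these groups, 6 to 49 when a library was left out, and 1 without WT CD41-negative libraries 1 and 3 together, an alternative added after the data were seen.

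In CD41-positive HSC Fcer1g was the one pathway gene called, against 16 in a fit of only these groups, and the interaction term called 0 of 100, with 8 at an unadjusted p under 0.05 and up to 5 called when a library was left out. In LT-HSC edgeR called 0 of 99 pathway genes and DESeq2 4. In MkP it called 1, P2ry2, with 1.48 ± 0.808 CPM in V617F and 18.98 ± 10.4 CPM in WT (SD, n = 3 each; log2 -3.68, edgeR adjusted p 0.0378), beside the higher granulocyte marker sums of WT MkP given above, whose part was not tested. This call was lost without any one of the 3 V617F MkP libraries. Between MkP and LT-HSC, 1 pathway gene was higher and 1 lower in V617F, against 42 called in a fit of only these groups and 0 or 1 when a library was left out. Rap1b averaged 1854 ± 987 CPM in V617F MkP and 124 ± 11.7 CPM in V617F LT-HSC (edgeR adjusted p 0.0125), and Ptpn6, a tyrosine phosphatase of ITAM signalling, 252 ± 5.50 CPM in V617F MkP and 563 ± 81.5 CPM in V617F LT-HSC (adjusted p 0.0460). In WT 6 were higher and 8 lower in MkP: Btk, Rap1b, Slc14a2, Syk, Rasgrp2 and Prkar2b rose, and Gng11, Ptpn6, Ptafr, Pde8a, Orai1 and Atp2b4 were among those that fell. A fit of only the WT groups called 0 of these 14.

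The genes whose pattern over the 23 libraries was most like the mean of the 10 genes were ranked by Pearson correlation of log2(CPM + 1), centred within each protocol, over 10037 genes. The nearest were Sla (r = 0.975), Serpine2 (0.972), Adgrg3 (0.969), Plek (0.966), Stx11 (0.966), Ltbp1 (0.963), Ckap2l (0.960) and Rab27b (0.960). Plek, pleckstrin, a major substrate of protein kinase C in platelets, averaged 1148 CPM in V617F MkP and 873 CPM in WT MkP, while V617F LT-HSC averaged 52.0 CPM and WT LT-HSC 47.6 CPM. Within the 10 genes, F2rl2, Kcnj5, Pde10a and Slc14a1 followed the mean profile most closely (r = 0.985, 0.983, 0.980 and 0.980), F2r (0.843) and Rgs18 (0.770) less so, and P2ry12 hardly (0.113). The libraries share groups and protocol, the profile contains the 10 genes, and the correlations are descriptions.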

How the data were processed

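RNA of 23 libraries was read in 8 groups. The authors deposited 1 table of counts, whole-number read counts per gene with Entrez identifiers and gene lengths per the file headers. Per the submitters' processing notes, STAR 2.5.2a, R 3.4.2, limma and the build mm10 were used; the counting tool and its strand setting are not given in the sources used here. Samples were grouped by the labels' population and genotype.

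Each protocol was fitted apart in R 4.3.3 with edgeR 4.0.16 (TMM scaling, filterByExpr with a minimum count of 10, 1 mean per group, quasi-likelihood F test). The filter kept 14281 genes of the v2 libraries and 14467 of the v4 libraries. P-values were adjusted by Benjamini-Hochberg over all genes of a contrast, with a threshold of 0.05, and measure the spread between libraries. The labels do not say whether same-numbered fractions share a mouse, and the tests reported treat them as separate. Folds against groups at 0 use a floor of 3 counts per library, 0.0597 to 0.171 CPM, which covers counting error only. Scripts were tested on simulated data.

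The genes, the lists and the marker sets were chosen with earlier results of these data known. Named are all 10 genes, up to 6 passing pathway genes per contrast and direction with the smallest adjusted p, the family members read per kb, and the 8 genes most like the mean profile with at least 10 CPM. Alternatives were DESeq2 1.42.0, limma-voom (limma 3.58.1), RLE scaling inside edgeR, testing unfiltered genes, requiring 5 CPM in 3 libraries, fitting only the groups compared, sex as a covariate, the male mouse or each library left out, and a replicate block. Same-numbered V617F fractions deviated together (r = 0.431, 0.551 and 0.410), those of WT did not (0.0744 and 0.0149), nor did WT MkP and LT-HSC (-0.0381 to 0.0175).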

Additional observations from a re-analysis of the deposited data

How the results depend on the processing

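Some differences between genotypes changed sign with the processing, and none of these had passed the test. In CD41-negative HSC, without WT libraries 1 and 3 together, F2rl2 (0.61 as fitted) had a log2 difference of -0.10 and Rgs18 (0.06) one of -0.33. In CD41-positive HSC, limma-voom gave -0.015 for F2rl2, and without the male mouse P2ry1 was at 0.058 and Rgs18 at 0.014. In LT-HSC, limma-voom gave 0.19 for P2ry1 (-0.40 as fitted) and 0.0027 for Rgs10 (-1.03), and Slc14a1 was at -0.0804 with DESeq2, -0.0806 with RLE size factors, -0.017 with 5 CPM required in 3 libraries and -0.037 in a fit of only the groups compared. With each library left out in turn, the log2 difference ran between -0.26 and 0.37 for F2rl2, -0.23 and 0.058 for P2ry1, -0.0045 and 0.24 for Rgs10 and -0.26 and 0.014 for Rgs18 in CD41-positive HSC. In CD41-negative HSC it ran between -0.22 and 0.29 for Rgs18, and in MkP between -0.0056 and 0.52 for F2rl2. In LT-HSC it ran between -0.27 and 0.14 for F2rl2, -0.93 and 0.61 for P2ry1 (the ends without WT libraries 30 and 32) and -0.21 and 0.15 for Slc14a1.

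Of the 972 other values computed for single genes, 26 changed sign, 9 lost a call and 11 gained one. The count of the 10 genes called between genotypes, 1 in CD41-negative HSC, was 2 with DESeq2 (Pde10a added) and 1 or 2 with a library left out, F2rl2 being added without WT library 4. DESeq2 called 1 in CD41-positive HSC and 1 in LT-HSC, and a fit of only the groups called 1 in CD41-positive HSC. Calls over all genes were not counted for the alternatives. Counts of pathway genes moved more. In CD41-negative HSC the 28 became 2 in a fit of only the groups, 1 without WT libraries 1 and 3, 4 without the male mouse and 6 to 49 with a library left out. In CD41-positive HSC the 1 became 9 with DESeq2, 2 with the 5 CPM requirement, 16 with only the groups and 2 with sex as a covariate. In LT-HSC DESeq2 called 4 and limma-voom 1, against 0. In MkP the 1 became 6 with DESeq2, 9 with limma-voom, 3 with only the groups and 0 to 3 with a library left out. The interaction term called 0 to 5, the 5 without WT CD41-negative library 4. Between MkP and LT-HSC, the 2 of V617F became 13 with DESeq2, 1 without a filter, 42 with only the groups and 0 to 1 with a library left out, and the 14 of WT became 25 with DESeq2, 0 with only the groups and 9 to 16 with a library left out. Between the WT fractions, the 44 became 26 with only the groups, 25 without CD41-negative libraries 1 and 3, and 19 to 59 with a library left out, the 24 and 19 without CD41-positive libraries 3 and 4. The cause of these moves was not tested.

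With the replicate number as a block, F2rl2 passed between genotypes in CD41-negative HSC (log2 1.08, edgeR adjusted p 0.0388) beside F2r (log2 1.37), which made 2 of the 10 genes. Rgs18 passed between the WT fractions (0.92, adjusted p 0.0334), for 9 of 10. In CD41-positive HSC P2ry1 was at 0.12 and Pde10a at 0.20, neither passing. The block called 34 pathway genes between genotypes in CD41-negative HSC, 2 in CD41-positive HSC, 55 between the V617F fractions, 43 between the WT fractions and 0 between WT MkP and LT-HSC. It changed no other call of the 10 genes. Same-numbered fractions deviated together in V617F and not in WT. This cannot show whether a number stands for a mouse. Libraries can deviate together for other shared traits, such as the sex of the V617F libraries numbered 2, and WT had only 2 CD41-positive libraries. Between genotypes a number ties different mice (r = -0.164 and -0.0420 for same-numbered V617F and WT CD41-negative HSC), so the genotype calls gained with the block have no basis in the design.

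Grap2 and Kcnj5 in CD41-negative HSC and LT-HSC, Pde10a in WT LT-HSC and P2ry12 throughout rest on few counts, and groups of 2 or 3 libraries limit what the tests can detect.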
